A study of Arabidopsis thaliana with 3 samples.

Results

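Transcript levels after 90 min of light enriched in far-red were compared with those in white light, in wild-type Arabidopsis thaliana seedlings of the accession Col-0. PEAT, a paired-end sequencing assay that reads the 5′ ends of capped transcripts and so maps transcription start sites, was applied to total RNA of whole seedlings aged 10 days. The 3 libraries all come from unmodified wild-type plants, with 1 kept in white light and the others moved to far-red enriched light for 45 and 90 min, and no line that changes ATHB2 is among them. The white light and the 90 min library make the comparison, and the 45 min library is given beside them. Each condition has 1 library, so no difference has a replicate check, no p-value is given, and every interval covers counting error only. A library of whole seedlings holds many cell types, and fewer cells of a type cannot be told apart from less RNA per cell.

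Plants sense neighbours through phytochromes, photoreceptors that red light activates and far-red light switches back. Under a leaf canopy phytochrome B loses activity, phytochrome-interacting factors (PIFs) accumulate, and these bHLH transcription factors induce early genes such as the homeodomain leucine zipper gene ATHB2 and enzymes of auxin synthesis. Seedlings then elongate their stems and petioles, a programme known as shade avoidance, in which auxin, brassinosteroids, gibberellins and ethylene take part.

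Of the 6814 genes in the deposited table, 5346 had at least 100 reads in white light or at 90 min and were compared. Each gene was represented by its transcript with the most reads, and levels are reads per 1000000 (RPM) of the column total, which was 3440656 reads in white light, 4373900 after 45 min and 4125024 after 90 min. The table is a selection of genes with a first and a further start window, so RPM is a share of its reads and not of the whole library. A single read equals 0.291 RPM in white light and 0.242 RPM at 90 min. The minimum was met in both libraries by 3913 genes, at 90 min alone by 925 and in white light alone by 508. Just inside it, 24 genes had exactly 100 reads in their higher library, among them PKp3 (AT1G32440) with 37 in white light and 100 at 90 min, and just outside it 17 genes had 99, among them AT4G22740 with 99 and 72.

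Most genes differed little between both libraries. The log2 ratio, taken as log2 of (RPM at 90 min + 1) over (RPM in white light + 1), had a median of 0.01, and its 25th and 75th percentiles were -0.49 and 0.54. A gene is called higher or lower here when that ratio passes 2-fold. This held for 743 genes in the higher direction, 13.9% of the 5346, and for 579 in the lower direction, 10.8%. At least 4-fold differences were seen in 241 genes upward and 135 downward. The pseudocount of 1 RPM understates the differences of genes with few reads.

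The spread of these ratios narrowed with depth. Among genes with a mean under 100 reads over both libraries, 42.1% were called higher and 25.1% lower, but such a gene enters the comparison only through the library in which it is high, so it had to differ in reads. Between 200 and 500 reads the shares were 7.96% and 6.6%, and between 1000 and 5000 reads they were 2.07% and 0.62%. Of the 3913 genes with 100 reads in each library, 163 were higher (4.17%) and 201 lower (5.14%), a set chosen after the values were seen. Among the 1296 genes that averaged at least 500 reads, likewise chosen after the values were seen, 48 were higher (3.7%) and 20 lower (1.54%). The plot of ratios against reads shows this narrowing, and the plot of shares by depth gives it in bins.

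**Figure D1:**
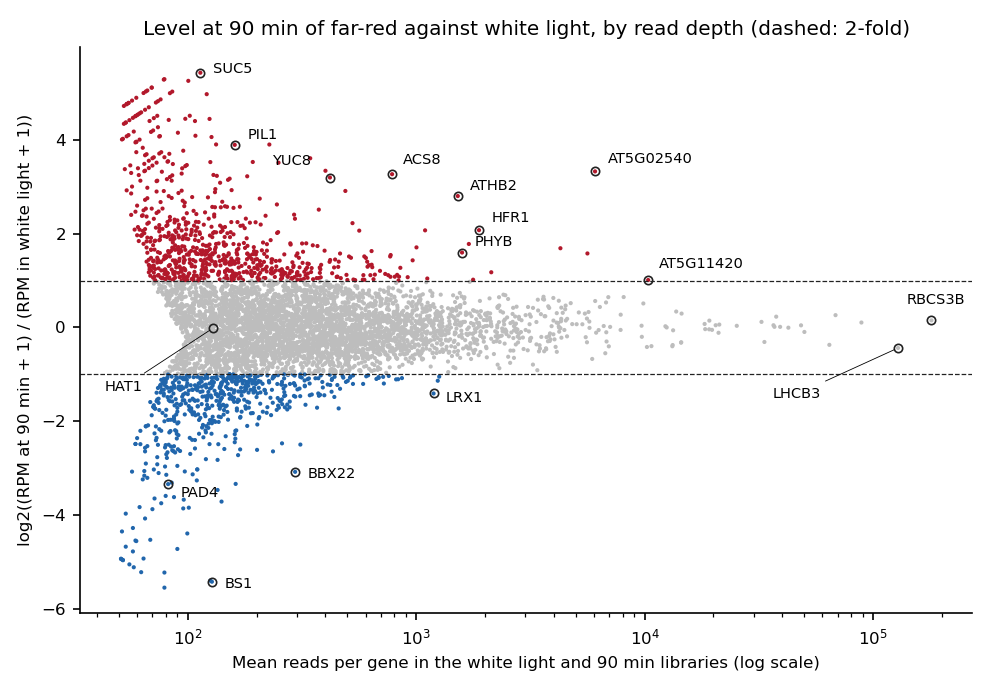
Each point is 1 of the 5346 genes, with its mean reads in the white light and 90 min libraries (x, log scale) and its log2 ratio of RPM at 90 min over white light (y); red and blue mark genes past 2-fold. AT5G02540 and AT5G11420 are among the few higher genes with many reads, whereas LHCB3 and RBCS3B, read most of all, lie within 2-fold.

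**Figure D2:**
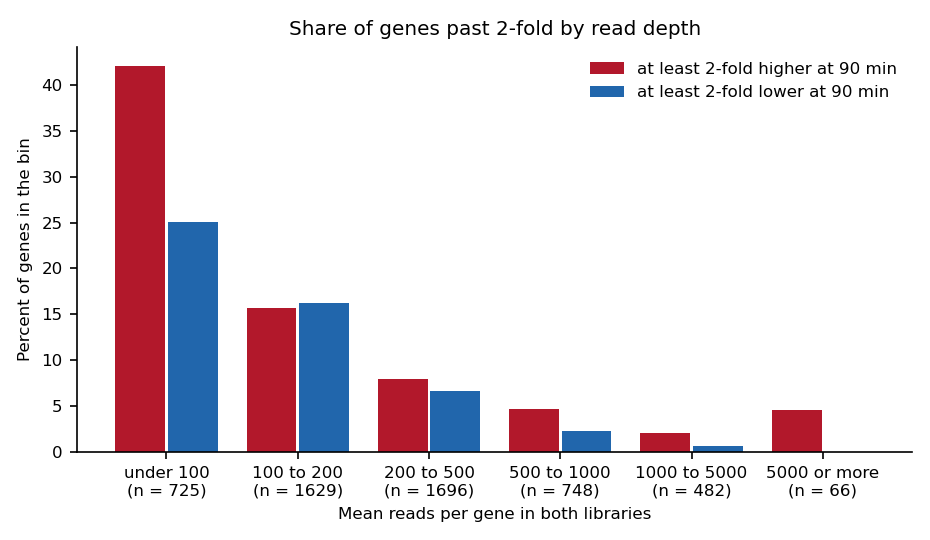
Bars give the percent of genes in each bin of mean reads that were at least 2-fold higher (red) or lower (blue) at 90 min, with the number of genes under each bin. The shares drop from 42.1% and 25.1% under 100 reads to 2.07% and 0.62% between 1000 and 5000, and in the deepest bin of 66 genes 4.55% were higher and none lower.

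Of a list of 20 genes known from shade avoidance, the table holds 6, and 5 of these were at least 2-fold higher at 90 min. That is 83.3%, beside 13.9% of all 5346 genes. Of 3 with 100 reads in each library, 2 were higher, beside 4.17% of all genes of that depth. The list had a median log2 ratio of 2.97 beside 0.01 for all 5346 genes. Earlier results of these data were known when the list was written, so its direction is a description. Where a sentence gives 3 values in a row, they stand for white light, 45 min and 90 min. ATHB2 (AT4G16780), the homeodomain leucine zipper gene that the study concerns, had 322 reads in white light (93.6 RPM), 6600 after 45 min (1509 RPM) and 2719 after 90 min (659 RPM). Its level at 90 min was 7.04 times that in white light (95% counting interval 6.27 to 7.93), yet the 45 min library stood highest. HAT1 (AT4G17460), of the same class II family, had 34.3 RPM in white light, 98.5 after 45 min and 33.9 after 90 min. Its white light and 90 min levels lay within counting error of each other, and only the 45 min library was high.

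The bHLH and hormone genes of the list stood highest at 90 min or equally high at both times. PIL1 (AT2G46970), a bHLH gene related to the PIFs, had 14 reads in white light, 202 after 45 min and 307 after 90 min, an 18.3-fold difference between the outer libraries (10.7 to 33.9). HFR1 (AT1G02340), an atypical bHLH protein that binds PIFs and restrains them, had 620, 1704 and 3146 reads, or 180, 390 and 763 RPM. It was 4.23-fold higher at 90 min than in white light (3.88 to 4.62). Both genes were lowest in white light and highest at 90 min.

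YUC8 (AT4G28720), a flavin monooxygenase of the last step of auxin synthesis, had 19.5 RPM in white light, 63.8 after 45 min and 187 after 90 min. The 90 min level was 9.60 times that of white light (7.47 to 12.5), and it was the highest of the 3 libraries. CKX5 (AT1G75450), which degrades cytokinin, had 10, 150 and 137 reads, so that both far-red libraries were alike at 34.3 and 33.2 RPM and the white light library was low. The RefSeq gene table of assembly TAIR10.1 places 3 other genes over the CKX5 locus, and whether reads were counted by strand is not given in the sources used here. PIL1, YUC8 and CKX5 had under 100 reads in white light and entered through the 90 min library.

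**Figure D3:**
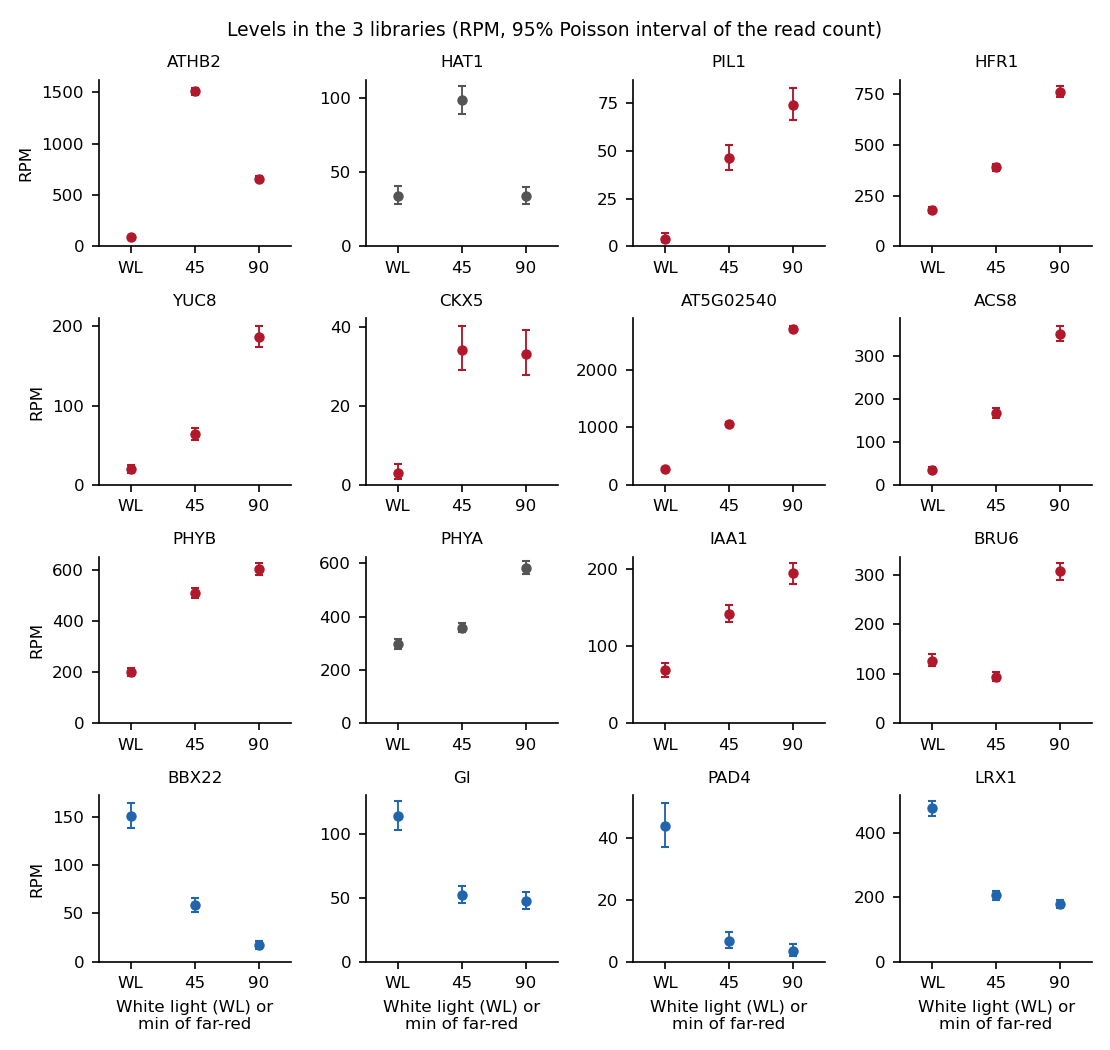
Level (RPM, y, from 0) of 16 genes in the white light (WL), 45 min and 90 min libraries, 1 library each, with 95% Poisson intervals of the read count. ATHB2 and HAT1 peak at 45 min, PIL1, HFR1, YUC8, AT5G02540 and ACS8 stand highest at 90 min, and BBX22, GI, PAD4 and LRX1 are highest in white light (red: called higher at 90 min; blue: called lower; grey: within 2-fold).

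More auxin genes, YUC8 included, were called higher than lower, but not among those with 100 reads in each library. All 22 genes of the auxin list that the table holds passed the read minimum. Of these, 5 were higher and 1 lower (22.7% and 4.55%, beside 13.9% and 10.8% of all genes), and 15 of the 22 had a ratio above 0, with a median of 0.59. Of the higher ones, YUC8, IAA14, AFB3 and ARF5 had under 100 reads in white light and entered through the 90 min library. Of the 925 genes that entered that way, 580 were higher. Among the 15 with 100 reads in each library, 1 was higher and 1 lower. Their median was 0.48, beside -0.07 for the 3913 genes of that depth.

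Among Aux/IAA genes, whose short-lived proteins repress auxin responses and are themselves auxin-induced, IAA1 (AT4G14560) had 236 reads in white light, 621 after 45 min and 800 after 90 min. That is a 2.83-fold difference between white light and 90 min (2.44 to 3.28). IAA14 (AT4G14550) had 44, 159 and 171 reads, 3.24-fold (2.32 to 4.62), with both far-red libraries above white light. IAA3, IAA4, IAA7, IAA8 and IAA17 had ratios between 0.48 and 0.78 and did not pass 2-fold, and IAA18 had -0.62.

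The auxin receptors and transporters were mixed. AFB3 (AT1G12820), an F-box auxin co-receptor, had 23, 227 and 277 reads, or 6.68, 51.9 and 67.2 RPM, 10.0-fold higher at 90 min than in white light (6.56 to 16.1). Other annotated genes overlap its locus. TIR1, the founding member of that receptor family, had 408, 611 and 762 reads and a ratio of 0.64, while AFB2 and AFB5 both had -0.14. The influx carrier AUX1 had 2582, 4020 and 4675 reads and a ratio of 0.59, and the efflux transporter ABCB19 had 0.11. Thus 1 receptor gene was called higher and the remaining ones stayed within 2-fold.

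Auxin response factors, the DNA-binding proteins that Aux/IAA proteins repress, stood on both sides. ARF5 (AT1G19850), which patterns the embryo and veins, had 42 reads in white light, 48 after 45 min and 135 after 90 min. It was 2.68-fold higher at 90 min (1.88 to 3.89), and the 45 min library was as low as white light. ARF4 (AT5G60450), which was not in the list but carries the word auxin in its annotation, had 43, 119 and 223 reads, 4.33-fold (3.11 to 6.14). In contrast, ARF16 (AT4G30080) had 257, 156 and 148 reads and was 2.08-fold lower at 90 min (1.69 to 2.57). In these 3 genes the first start window did not differ in that direction, as its ratio was -0.04 for ARF5, -0.09 for ARF4 and 0.05 for ARF16.

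Enzymes that make or conjugate auxin were among the genes with many reads. NIT1 (AT3G44310), a nitrilase able to release auxin from indole-3-acetonitrile, had 662, 2076 and 2737 reads, or 192, 475 and 664 RPM, and was 3.45-fold higher at 90 min (3.17 to 3.76). BRU6 (AT4G37390), a GH3 enzyme that links auxin to amino acids, had 127 RPM in white light, 94.2 after 45 min and 307 after 90 min. It was 2.43-fold higher at 90 min than in white light (2.17 to 2.71), whereas its 45 min level lay below white light. GH3.17 (AT1G28130), a relative, had 89.5, 112 and 183 RPM and just passed 2-fold at 2.04 (1.79 to 2.34).

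Other growth hormones showed single genes with large differences. ACS8 (AT4G37770), an ACC synthase of the ethylene pathway, had 122 reads in white light, 725 after 45 min and 1446 after 90 min, or 35.5, 166 and 351 RPM. Its level at 90 min was 9.89 times that in white light (8.21 to 12), with the 45 min library between them. GA2OX6 (AT1G02400), which inactivates gibberellins, had 31, 115 and 468 reads, a 12.6-fold difference (8.75 to 18.7), most of it between 45 and 90 min.

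In the list of brassinosteroid and gibberellin genes, 2 of 11 genes were higher and none lower, with a median of 0.29. The 18.2% called higher is near the 13.9% of all genes. BAS1 (AT2G26710), a cytochrome P450 that inactivates brassinosteroids, had 60, 189 and 257 reads, 3.57-fold (2.69 to 4.81). BEE3 (AT1G73830), a bHLH gene induced by brassinosteroids, had 28, 108 and 168 reads, 5-fold (3.34 to 7.76). Both entered through the 90 min library, and none of the 8 genes of the list with 100 reads in each library passed 2-fold. Of all genes of that depth 4.17% were higher and 5.14% lower. The kinase gene BIN2 and the transcription factor gene BES1 had ratios of -0.63 and -0.51, and the DELLA gene RGA had 0.42. SQE3 (AT4G37760), a squalene epoxidase of sterol synthesis outside the list, had 269, 815 and 1006 reads and was 3.12-fold higher (2.72 to 3.58). BEH4 (AT1G78700), a relative of BES1, had 339, 516 and 828 reads, 2.04-fold (1.79 to 2.32).

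In the jasmonate list 2 of 9 genes were higher and 1 lower (22.2% and 11.1%, beside 13.9% and 10.8% of all genes), with a median of 0.21. All 3 of these genes met the read minimum in 1 library alone, and none of the 6 with 100 reads in each library passed 2-fold. Of all genes of that depth 4.17% were higher and 5.14% lower. JAZ3 (AT3G17860) and JAZ1 (AT1G19180) encode repressors of jasmonate responses. The former had 27, 110 and 155 reads, 4.79-fold (3.17 to 7.50), and the latter 52, 122 and 140 reads, 2.25-fold (1.62 to 3.15). LOX2 (AT3G45140), a lipoxygenase of jasmonate synthesis, had 104, 104 and 60 reads and was 2.08-fold lower at 90 min (1.5 to 2.91). MYC2, the main transcription factor of the pathway, had 447, 697 and 417 reads and a ratio of -0.36.

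All 7 abscisic acid and cold genes had 100 reads in each library, where 4.17% of all genes were higher and 5.14% lower. None of this list passed 2-fold, and its median was 0.06. Outside it, CYP707A1 (AT4G19230), which inactivates abscisic acid, had 62, 272 and 202 reads, 2.72-fold higher at 90 min than in white light (2.04 to 3.67). OST1 (AT4G33950), a kinase of abscisic acid signalling in guard cells, had 655, 416 and 378 reads and was 2.08-fold lower (1.83 to 2.36).

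Among photoreceptors and their partners, the 2 phytochrome genes measured stood higher at 90 min. PHYB (AT2G18790), the phytochrome that far-red inactivates in shade avoidance, had 684 reads in white light, 2225 after 45 min and 2490 after 90 min. Its level was 3.04-fold higher at 90 min (2.79 to 3.31), and both far-red libraries lay above white light. PHYA (AT1G09570), which signals under far-red itself, had 1022, 1566 and 2409 reads, 1.97-fold (1.83 to 2.12), just under the 2-fold call. CRY2 and COP1, a blue light receptor and an E3 ligase of light signalling, had ratios of 0.49 and 0.62.

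FAR1 (AT4G15090), a transposase-derived activator in phytochrome A signalling, had 54, 191 and 195 reads and was 3.01-fold higher (2.22 to 4.15). Its partner FHY3 (AT3G22170) had 534, 344 and 341 reads, 1.88-fold lower (1.64 to 2.16), which did not pass 2-fold. These partners thus stood on opposite sides of white light in these libraries. SPA3, a COP1 partner, had 200, 358 and 134 reads and a ratio of -0.82.

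BBX22 (AT1G78600), a B-box protein that promotes responses to light, was the 1 gene of this list called lower at 90 min. It had 520 reads in white light, 256 after 45 min and 70 after 90 min, or 151, 58.5 and 17.0 RPM. That is an 8.91-fold lower level (6.93 to 11.6), and the 3 libraries did not overlap in their counting intervals. In all, 2 of 11 genes of the list were higher and 1 lower, with a median of 0.49, and these shares of 18.2% and 9.09% are near the 13.9% and 10.8% of all genes. FAR1 and BBX22 met the read minimum in 1 library alone. Of the 8 genes with 100 reads in each library 1 was higher and none lower, beside 4.17% and 5.14% of all genes.

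The clock list had no gene called higher and 1 of 11 lower (9.09%, beside 10.8% of all genes), with a median of -0.45. That median was -0.15 over the 9 genes with 100 reads in each library, -0.13 in the first start window, and -0.595 with the first and second windows summed. GI (AT1G22770), which links the clock to flowering, had 393, 229 and 197 reads and was 2.39-fold lower at 90 min (2.01 to 2.85), with both far-red libraries below white light. In its first start window the ratio was 0.14, so the difference lay outside that window. LHY and CCA1, the morning-phased MYB genes of the clock, had ratios of -0.15 and -0.50, and PRR7 had 0.26.

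**Figure D4:**
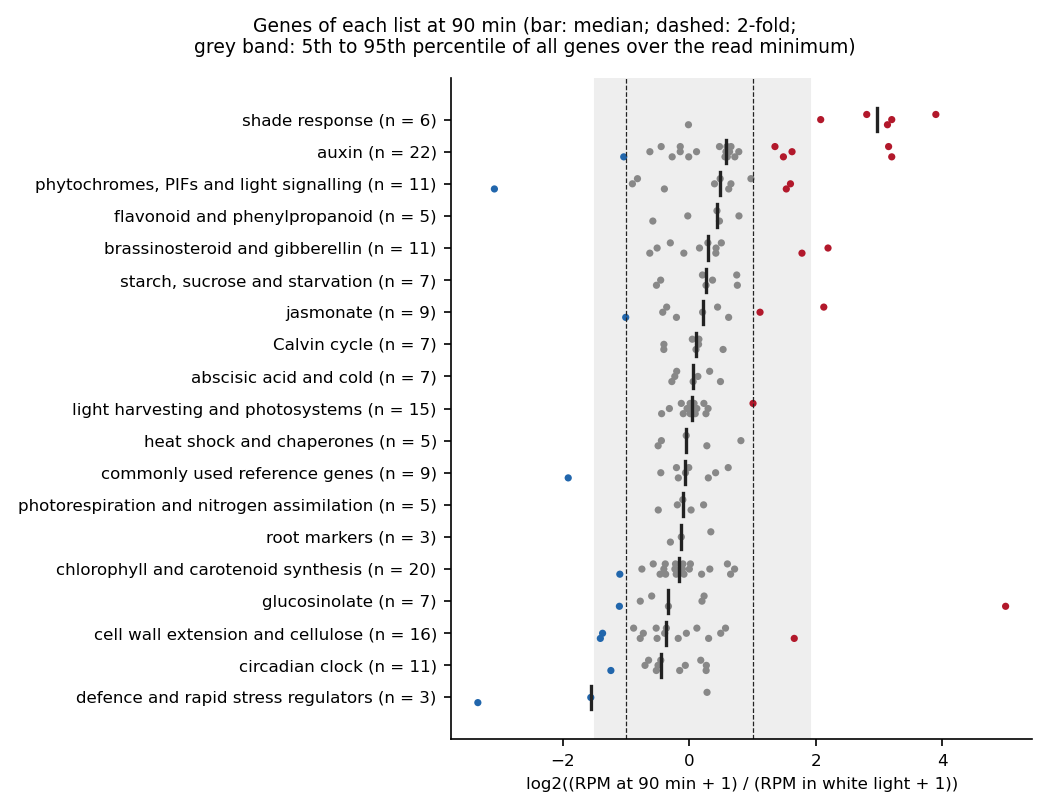
Each point is a gene of the named list with its log2 ratio of RPM at 90 min over white light (x); bars are list medians, dashed lines 2-fold and the grey band the 5th to 95th percentile of all 5346 genes (-1.5 to 1.90). The shade response list has 5 of 6 genes beyond the right dashed line, while light harvesting, Calvin cycle and heat shock genes cluster around 0.

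Photosynthesis genes, which supply the most abundant transcripts, stayed close to their white light level. Of 15 light harvesting and photosystem genes 1 was called higher (6.67%, beside 13.9% of all genes) and none lower. All 15 averaged at least 500 reads, a depth at which 3.7% of all genes were higher and 1.54% lower. Their median was 0.04, and their summed level was 138530 RPM in white light, 165986 after 45 min and 133402 after 90 min. None of 7 Calvin cycle genes, all of that depth, passed 2-fold, with a median of 0.10. The gene with the largest loss in RPM was LHCB3 (AT5G54270), an antenna protein of photosystem II, with 39677 RPM in white light, 37906 after 45 min and 29272 after 90 min. It dropped by 10405 RPM, which is a 1.36-fold lower level (1.34 to 1.37). The largest gain was that of RBCS3B (AT5G38410), a small subunit of Rubisco, with 44934, 42385 and 49870 RPM, 1.11-fold higher (1.1 to 1.12).

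Next in gain came PSBO1 (AT5G66570) of the oxygen-evolving complex, with 16332, 25929 and 19582 RPM. LHCB1.5 (AT2G34420) had 13713, 25981 and 12823 RPM, so its 45 min library stood apart while white light and 90 min were alike. RBCS and LHCB genes have near-identical copies, and how reads were divided among copies is not given in the sources used here. The counting intervals of such deep genes are narrow, and with 1 library a condition they say nothing of the spread between seedling samples.

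Of 20 chlorophyll and carotenoid synthesis genes, 1 was lower (5%, beside 10.8% of all genes) and none higher, with a median of -0.16. Of the 19 with 100 reads in each library 1 was lower, where 5.14% of all genes of that depth were. FC2 (AT2G30390), a ferrochelatase of the heme branch, had 860 reads in white light, 404 after 45 min and 479 after 90 min, 2.15-fold lower (1.92 to 2.41). CHLH, the large subunit of magnesium chelatase, had 11360, 17487 and 13614 reads and lay within 2-fold. LHCA6 (AT1G19150), an antenna protein of photosystem I, had 316, 578 and 765 reads, 2.02-fold higher (1.77 to 2.31). CLH1 (AT1G19670), a chlorophyllase, had 406, 668 and 1599 reads, 3.29-fold higher (2.94 to 3.67), mostly between 45 and 90 min. TAP38 (AT4G27800), the phosphatase that acts on the light harvesting complex of photosystem II, had 655, 543 and 371 reads and was 2.12-fold lower (1.86 to 2.41).

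Cell wall genes were not higher as a group. In the list of cell wall extension and cellulose genes, 1 of 16 was higher and 2 lower (6.25% and 12.5%, beside 13.9% and 10.8%), with a median of -0.38 and 5 of 16 ratios above 0. Of 13 with 100 reads in each library, none was higher and 2 were lower. Their median was -0.39, beside -0.07 for all genes of that depth, where 4.17% were higher and 5.14% lower. XTH28 (AT1G14720), a xyloglucan endotransglucosylase, had 584, 361 and 268 reads, 2.61-fold lower (2.26 to 3.03). CESA4 and CESA8, cellulose synthases of the secondary wall, stood on opposite sides. CESA4 (AT5G44030) had 280, 152 and 124 reads, 2.71-fold lower (2.18 to 3.37). CESA8 (AT4G18780) had 27, 109 and 111 reads, 3.43-fold higher (2.24 to 5.43), and annotated genes overlap both loci. CESA6 of the primary wall had 2544, 3236 and 2951 reads and a ratio of -0.05, and the expansins EXPA4 and EXPA5 had 0.50 and -0.78.

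Outside the list, 2 genes known from root hairs, singled out after their values were seen, were lower. LRX1 (AT1G12040), a leucine-rich repeat extensin of root hair walls, had 1643 reads in white light, 902 after 45 min and 739 after 90 min, 2.67-fold lower (2.44 to 2.91). MRH1 (AT4G18640), a receptor-like kinase of root hair growth, had 180, 57 and 11 reads, 19.6-fold lower (10.7 to 40.0). In both genes the white light library was highest and the 90 min library lowest. Of 13 listed root markers the table holds 3, and none passed 2-fold: AHA2 had 0.34, IRT1 -0.13 and PHO1 -0.30, and their summed level was 3434 RPM in white light, 4302 after 45 min and 4243 after 90 min. These 3 root markers had 100 reads in each library, where 4.17% of all genes were higher and 5.14% lower. None of 5 flower markers is in the table. The part of the share of root tissue in the levels of LRX1 and MRH1 was not tested.

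Outside the lists, FAR1, MYB96 and GSL12 were called higher at 90 min, and CER2 lay within 2-fold. FAR1 (AT5G22500), a fatty acyl reductase that shares its symbol with the light signalling gene, had 346, 675 and 1192 reads, 2.87-fold (2.55 to 3.25). CER2 (AT4G24510), which acts in wax chain elongation, had 5623, 12917 and 10564 reads, 1.57-fold (1.52 to 1.62), and gained 927 RPM. MYB96 (AT5G62470), a transcription factor of wax synthesis, had 132, 440 and 465 reads, 2.94-fold (2.42 to 3.59). GSL12 (AT5G13000), a callose synthase, had 275, 612 and 929 reads, 2.82-fold (2.46 to 3.24). Of these, FAR1 and GSL12 were picked after their values were seen.

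Defence and stress genes were few in the table. Of 14 listed defence and rapid stress regulators it holds 3, of which 2 were lower (66.7%, beside 10.8% of all genes). Both lower genes met the read minimum in white light alone, as did 508 of all genes, of which 378 were lower. The 1 gene with 100 reads in each library, TCH2, did not pass 2-fold. PAD4 (AT3G52430), a lipase-like regulator of immunity, had 150 reads in white light, 29 after 45 min and 14 after 90 min, 12.8-fold lower (7.42 to 24.1). TCH3 (AT2G41100), a calmodulin-like gene induced by touch, had 159, 183 and 62 reads, 3.07-fold lower (2.28 to 4.19), and TCH2 had 526, 492 and 766 reads and a ratio of 0.28. None of 5 heat shock and chaperone genes passed 2-fold, nor did any of 5 flavonoid, 5 photorespiration or 7 starch and sucrose genes, whose medians were 0.44, -0.10 and 0.26. Nearly all of these genes had 100 reads in each library, where 4.17% of all genes were higher and 5.14% lower. At those shares, lists this small hold few called genes. In the glucosinolate list 1 of 7 genes was higher and 1 lower (14.3% each, near the shares of all genes). SOT18 (AT1G74090), a sulfotransferase of glucosinolate synthesis, had 241, 265 and 132 reads, 2.19-fold lower (1.76 to 2.73). CYP79F1 (AT1G16410), which starts the synthesis of aliphatic glucosinolates, had 1, 44 and 166 reads, a ratio of 138 with a counting interval of 24.5 to 5501.

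Of 9 genes often used as references 1 was called lower (11.1%, beside 10.8% of all genes). UBC21 (AT5G25760), a ubiquitin-conjugating enzyme, had 214, 107 and 65 reads, 3.95-fold lower (2.98 to 5.29). The other eight had ratios between -0.45 and 0.61, and the median of the list was -0.06. Another annotated gene overlaps UBC21.

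The genes with many reads have the smallest counting error, which says nothing of the spread between seedling samples. Among the 48 higher genes that averaged at least 500 reads, AT5G02540, a short-chain dehydrogenase in the deposited annotation, stood out. It had 927 reads in white light, 4632 after 45 min and 11203 after 90 min, or 269, 1059 and 2716 RPM, and was 10.1-fold higher (9.43 to 10.8). Its gain of 2446 RPM was the third largest of all genes, after RBCS3B and PSBO1. The 45 min value lay between the other two.

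AT5G02760, a protein phosphatase 2C by annotation, had 712, 1387 and 2129 RPM, 2.99-fold higher (2.86 to 3.13), though other annotated genes overlap it. AT5G12050, without annotation text, had 510, 1483 and 1648 RPM, 3.23-fold (3.06 to 3.41). AT5G11420 had 1763, 5398 and 3553 RPM, 2.02-fold (1.96 to 2.08). The last was highest at 45 min, like ATHB2, whereas the first was highest at 90 min. AT1G73480, a hydrolase of the alpha/beta fold, had 105, 345 and 443 RPM, 4.23-fold (3.78 to 4.75). YSL6 (AT3G27020), a transporter of metal chelates, had 333, 534 and 755 RPM, 2.26-fold (2.12 to 2.43). NUC-L1 (AT1G48920), a nucleolin of ribosome biogenesis, had 133, 293 and 289 RPM, 2.18-fold (1.96 to 2.44).

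The 20 lower genes of that depth differed less, and LRX1 had the lowest ratio among them at -1.41. HIR1 (AT5G62740), a membrane protein of the hypersensitive-induced reaction family, had 464, 270 and 224 RPM, 2.08-fold lower (1.91 to 2.25). CYP71B20 (AT3G26180), a cytochrome P450, had 203, 94.4 and 87.3 RPM, 2.32-fold lower (2.04 to 2.64). BGLU19 (AT3G21370), a beta-glucosidase, had 224, 181 and 96.7 RPM, 2.32-fold lower (2.05 to 2.62). TMT2 (AT4G35300), a sugar transporter of the vacuole membrane, had 253, 162 and 121 RPM, 2.09-fold lower (1.87 to 2.34). All 4 were highest in white light and lowest at 90 min.

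Of 91 genes annotated as ribosomal proteins, 6 were higher and 5 lower (6.59% and 5.49%, beside 13.9% and 10.8% of all genes), with a median of 0.10. Of 79 with 100 reads in each library, 1 was higher and 3 lower, beside 4.17% and 5.14% of all genes of that depth. RPS15A (AT1G07770) had 949, 422 and 494 reads, 2.3-fold lower (2.06 to 2.57). AT2G43460, annotated as ribosomal protein L38, had 1051, 522 and 582 reads, 2.17-fold lower (1.95 to 2.40). In the opposite direction AT4G17390, annotated as ribosomal protein L15, had 309, 582 and 915 reads, 2.47-fold higher (2.17 to 2.82). The elongation factor gene eEF-1Bb1 (AT1G30230) had 1610, 1181 and 875 reads, 2.21-fold lower (2.03 to 2.40). Of 17 genes annotated with the proteasome 1 was higher and 3 lower (5.88% and 17.6%, beside 13.9% and 10.8% of all genes). Of 13 with 100 reads in each library, none was higher and 1 lower, beside 4.17% and 5.14% of all genes of that depth. The lower ones AT1G75990 and AT2G03430 met the read minimum in white light alone, and another annotated gene overlaps each. The remaining lower one was AT5G38650. The last, a maturation factor, had 396, 293 and 149 reads, 3.19-fold lower (2.63 to 3.87).

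The genes with the largest ratios had few reads in one library. SUC5 (AT1G71890), a sucrose transporter, had 1 read in white light, 104 after 45 min and 226 after 90 min, a ratio of 189 with a counting interval of 33.5 to 7478. AT2G43490, a TBC domain gene, had 3, 129 and 239 reads. ALDH2B7 (AT1G23800), an aldehyde dehydrogenase, had 11, 200 and 255 reads and a log2 ratio of 3.90. FEI2 (AT2G35620), a receptor-like kinase of cell wall function, had 21, 412 and 434 reads and also 3.90. In all 4 genes the white light library was low and both far-red libraries were high. AT4G10790, a UBX domain gene, had 41, 220 and 646 reads and a log2 ratio of 3.61.

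In the lower direction, BS1 (AT1G74500), a small atypical bHLH gene, had 252 reads in white light, 204 after 45 min and 3 after 90 min. Its white light level was 101 times that at 90 min (34.1 to 492), and the 45 min library stood near white light. AT2G45730, a tRNA methyltransferase by annotation, had 248, 89 and 3 reads. AT1G20460 had 158, 16 and 0 reads. Its 158 white light reads, taken as counted, are 63.1-fold above a floor of 3 reads at 90 min. The counting interval of the ratio, which covers error in both counts, starts lower, at 50.8. Only a single far-red library was low for BS1, whereas AT1G20460 was low in both. TXR1 (AT3G59280) had 190, 98 and 12 reads and a log2 ratio of -3.85, and AT1G51790, a receptor-like kinase, had 162, 135 and 12 reads and -3.62.

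Across all genes, 15 had 0 reads in white light and 9 had 0 at 90 min. A count of 0 allows up to 3 reads, which is 0.872 RPM in white light and 0.727 RPM at 90 min. Such genes are listed at 0 in the table and are not shown to be silent.

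Families were taken from words in the deposited annotation, and bHLH genes had the largest share called higher among families of at least 10 genes. Of 32 bHLH genes 12 were higher and 3 lower (37.5% and 9.38%, beside 13.9% and 10.8% of all genes), with a median of 0.31. Only 18 of them had 100 reads in each library. Among these 3 were higher and 1 lower, beside 4.17% and 5.14% of all genes of that depth. Their median was -0.12, beside -0.07. The 12 higher bHLH genes include HFR1, PIL1, BEE3 and CIB1 (AT4G34530), a partner of cryptochrome. CIB1 had 157 reads in white light, 342 after 45 min and 895 after 90 min, 4.75-fold (4.01 to 5.67). AT3G21330, a further bHLH gene, had 58, 498 and 743 reads, 10.7-fold (8.17 to 14.2), and ILR3 (AT5G54680) had 232, 385 and 625 reads, 2.25-fold (1.93 to 2.62). For CIB1 and ILR3 the 90 min library stood well above both others.

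**Figure D5:**
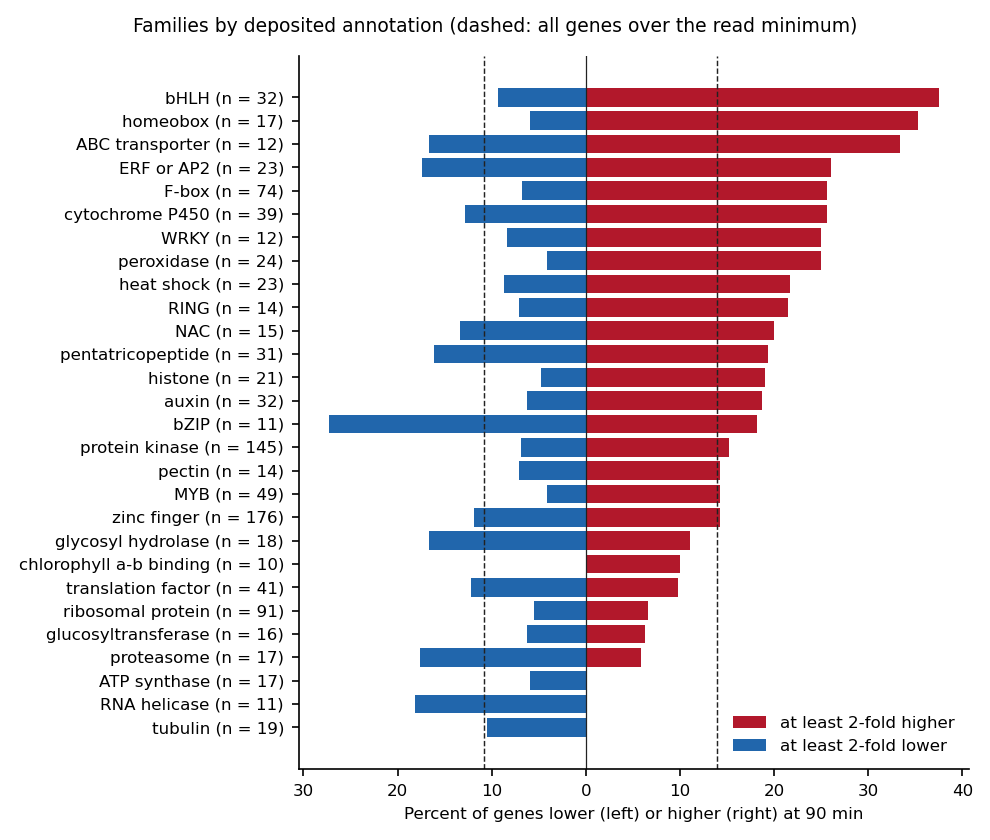
Percent of genes at least 2-fold higher (red, right) or lower (blue, left) at 90 min in families of at least 10 genes, with dashed lines at 13.9% and 10.8% for all genes over the read minimum. bHLH and homeobox genes reach 37.5% and 35.3% on the right, while tubulin, RNA helicase and ATP synthase families have no gene called higher. With 100 reads in each library, 3 of 18 bHLH and 2 of 12 homeobox genes were higher, beside 4.17% of all genes. That depth was met by 17 of 19 tubulin, 9 of 11 RNA helicase and 14 of 17 ATP synthase genes.

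Homeobox genes had 6 of 17 higher and 1 lower (35.3% and 5.88%, beside 13.9% and 10.8% of all genes), with a median of -0.01. Of 12 with 100 reads in each library, 2 were higher and none lower, beside 4.17% and 5.14% of all genes of that depth. Their median was -0.11, beside -0.07. Besides ATHB2, the higher ones were HAT3.1 (AT3G19510) with 42, 154 and 216 reads, PRHA (AT4G29940) with 47, 115 and 202, and ATH1 (AT4G32980) with 44, 32 and 148. HB-3 (AT5G15150) had 60, 141 and 189 reads and HB-1 (AT3G01470) had 254, 655 and 649. HAT3.1, PRHA, ATH1 and HB-3 entered through the 90 min library alone. ATH1, which acts in the shoot meristem, was low at 45 min as well as in white light. HB30 (AT5G15210), a zinc finger homeodomain gene, had 228, 923 and 788 reads, 2.88-fold (2.48 to 3.36).

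Zinc finger genes formed a large family with shares near those of all genes, at 25 of 176 higher and 21 lower (14.2% and 11.9%, beside 13.9% and 10.8%). GATA2 (AT2G45050), a regulator of light responses, had 196, 472 and 644 reads, 2.74-fold (2.33 to 3.23). BBX29 (AT5G54470), a B-box gene like BBX22, had 144, 283 and 376 reads, 2.18-fold (1.79 to 2.66), in the direction opposite to BBX22. AT5G44260, a CCCH zinc finger gene, had 454, 1001 and 1475 reads, 2.71-fold (2.44 to 3.02). F-box genes had 19 of 74 higher and 5 lower (25.7% and 6.76%). Of the 52 with 100 reads in each library 4 were higher and 3 lower, where 4.17% and 5.14% of all genes of that depth were. Protein kinases had 22 of 145 higher and 10 lower (15.2% and 6.90%) and MYB genes 7 of 49 and 2 (14.3% and 4.08%), so their higher shares lay near the 13.9% of all genes. Tubulin genes and cofactors had 0 of 19 higher and 2 lower (0% and 10.5%, beside 13.9% and 10.8% of all genes). None of the 17 with 100 reads in each library passed 2-fold, beside 4.17% higher and 5.14% lower of all genes of that depth. BZIP28 (AT3G10800), a membrane-bound factor of the endoplasmic reticulum stress response, had 627, 554 and 301 reads, 2.5-fold lower (2.17 to 2.87).

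Each gene was read at a first and at least 1 further start window, and both can be set against the total. Reads of the windows are part of the total that made the call, so agreement with the call is partly fixed in advance. Over all 5346 genes the first window alone was at least 2-fold higher in 1143 and at least 2-fold lower in 1000. Of the 743 higher genes, the first window was itself at least 2-fold higher in 572, the further windows together in 530, both in 371 and neither in 12. Of the 579 lower genes these numbers were 399, 448, 283 and 15. The first window went past 2-fold in the opposite direction in 19 of the higher and 16 of the lower genes. In ATHB2 the first window was 10.9-fold and the further windows 4.51-fold higher, and in IAA1 the first was 5.29-fold higher whereas the further ones were at 0.66 of the white light level.

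Genes called higher or lower did not stand apart in length or in overlap with other genes. Their median coding length was 1332 and 1278 bases, beside 1312.5 for all 5346 genes. Another annotated gene overlapped 29.5% of the higher, 29.9% of the lower and 32.1% of all genes. The members encoded in organelles numbered 2.

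The 45 min library shares its white light library with the comparison above, so its values are given only side by side. The 743 higher genes had median levels of 13.7 RPM in white light, 32.2 after 45 min and 45.6 after 90 min. For the 579 lower genes the medians were 55.2, 30.4 and 18.2 RPM. Set directly against each other, the far-red libraries differed less often. Of 5412 genes with at least 100 reads in one of them, 401 were at least 2-fold higher at 90 than at 45 min (7.41%) and 346 lower (6.39%). GA2OX6, CLH1 and BRU6 had most of their difference between these times, while AFB3, CKX5 and MYB96 had most of it by 45 min.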

How the data were processed

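The authors deposited 1 table of raw counts per transcript and library, with reads of the whole transcript and of a first and further start windows, per the file headers. FastQC, cutadapt, HISAT2 2.0.5, SAMtools 0.1.19 and bedtools 2.17.0 and the builds TAIR9 and TAIR10 are named in the submitters' processing notes, without role or order. How duplicates and overlapping genes were treated is not given in the sources used here.

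Counts were reduced to 1 transcript per gene (most reads over 3 libraries, ties to the lowest isoform number) and scaled to RPM of the column total. Genes with at least 100 reads in white light or at 90 min were compared on the log2 scale with a pseudocount of 1 RPM, and 2-fold made a call. Intervals are exact Poisson for a level and exact conditional (Clopper-Pearson) for a ratio, at 95%. As PCR copies carry no molecular identifiers, intervals and the floor of 3 reads cover counting error only. With 1 library a condition, no count model was fitted, and edgeR 4.0.16 served only for TMM factors in an alternative. Python 3.11.15, pandas 2.3.3, numpy 2.4.6, scipy 1.17.1 and matplotlib 3.10.9 were used, and the steps were tested on simulated data.

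Genes were named by a rule: the 15 largest rises and falls in ratio with at least 10 reads in the other library, the 5 with the most reads each way below that, the 10 largest gains and losses in RPM, the shade genes, and up to 6 genes past 2-fold of each list or family. Genes that averaged at least 500 reads, and listed genes within 2-fold that are given as ratios, were added after the values were seen. The genes compared and all gene lists were chosen with earlier results of these data known. Symbols come from the RefSeq table, which matched 6799 of 6814 loci. Families follow the deposited annotation text, held for 5211 genes, since product names were not used here. Promoter motifs were planned and not analysed here.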

Additional observations from a re-analysis of the deposited data

How the results depend on the processing

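No paired analysis was possible because each condition has 1 library, and for the same reason no replicate could be left out. The 743 higher and 579 lower genes were recounted under other settings. A mean of at least 100 reads over both libraries gave 438 higher genes, and the first start window alone gave 1143 higher and 1000 lower. Requiring 100 reads in each library gave 163 and 201, and a mean of at least 500 reads gave 48 and 20, both chosen after seeing the data. A fold of 3 gave 366 and 234, and a fold of 4 gave 241 and 135. Every other scaling, pseudocount, minimum and isoform choice tried kept both counts within 1.5 times. The median of the shade list was 2.97, and it became 2.51 with a pseudocount of 5 RPM, 3.32 with the first window or both windows, 2.44 with a mean of 500 reads and 2.08 with 100 reads in each library. The auxin median of 0.59 became 0.15 with the first window and 0.35 with both windows. The light harvesting median of 0.04 became -0.0393 with the first window. The defence median of -1.56 became 0.28 in both settings added after seeing the data, which leave 1 gene. With the first window alone the sign turned for ARF5 (-0.0417), ARF4 (-0.0889), ARF16 (0.0515) and GI (0.142), and the cause was not tested. Of the 1322 genes called, 1306 remained past 2-fold with TMM factors, 1312 with median-of-ratios factors and 971 with the first window, where 100 had the opposite sign. Depth limits genes with few reads most, since their counting intervals are the widest.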
